A study of Saccharomyces cerevisiae with 15 samples.

Results

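The young libraries of a study of replicative ageing in budding yeast fell into 2 expression states that cut across genotype. State A comprised replicate 2 of the young cth2 deletion and replicate 1 of the young wild type, and state B comprised replicate 1 of the young cth2 deletion and replicate 2 of the young wild type. Each of these 4 lysates gave an mRNA library and a ribosome footprint library, so that 4 libraries stood for each state and 8 of the 15 libraries of the series were young. The states were chosen by the expression values of these same 8 libraries. The difference between them is therefore given as a description, with no test, and the labels name no such grouping. The states cross the replicate numbers of the genotypes. The labels do not say what a number marks or at what cell density the cultures were harvested, so whether numbers were exchanged within a genotype, or cultures grown to different densities, cannot be told from them.

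The study compared replicatively old and young cells of a cth2 deletion strain and its wild-type parent by RNA-seq and by ribosome profiling, which sequences the mRNA fragments that ribosomes protect from nuclease. The wild type was UCC8773, a strain of the mother enrichment program, in which estradiol keeps daughter cells from multiplying, and the deletion strain was a derivative of it lacking CTH2 (listed as TIS11), which encodes an mRNA-binding protein active in iron deficiency. All cells had been grown in YPD with nourseothricin and hygromycin B, labelled with biotin and returned to YPD with 17β-estradiol. Old cells were taken after 30 h and young cells after 2 h, both with biotin-binding magnetic beads. The 7 old libraries comprised 3 of the deletion (1 mRNA and 2 footprint libraries) and 4 of the wild type (2 of each kind). How many clones the deletion strain represents, and whether replicates came from separate cultures, is not stated in the labels, so the spread between replicates may be partly technical.

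Yeast cells tune their growth programme to glucose. With abundant glucose, protein kinase A and TORC1 signalling keeps ribosome production high and the stress programme of the transcription factors Msn2 and Msn4 low, and low-affinity hexose carriers such as Hxt1 are made. As glucose runs down, high-affinity carriers such as Hxt6 and Hxt7, storage carbohydrate enzymes and stress proteins are made, and genes for ribosome assembly are turned down together.

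Levels are given as CPM, a gene's counts per 1000000 counts of its library after TMM scaling, and within each state the deletion library is given before the wild-type library. A state difference is log2 CPM in state A minus log2 CPM in state B, taken within deletion mRNA, wild-type mRNA, deletion footprints and wild-type footprints, so that each gene has 4 of them. A gene was counted as past the fold when all 4 had the same sign and an absolute size of at least 1. Of 7127 listed genes, 4471 averaged at least 10 CPM over the young libraries of each assay and were measured, and 170 of these passed that minimum through only 1 of the states. Counts per library ran between 3297736 and 6198680. In the mRNA libraries state A was the shallower, with 3439163 and 3512510 counts against 3800055 and 4971687 in state B, and in the footprint libraries it held 6198680 and 4031646 counts against 3297736 and 4009853. The deleted gene itself, TIS11, had 1 and 3 counts in the state A deletion libraries for mRNA and footprints and 2 and 1 in those of state B, against 28 to 60 in the 4 young wild-type libraries. Each library thus carried the genotype its label gives, in both states.

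Between the states, 123 of the 4471 measured genes were higher in state A (2.75%) and 22 were lower (0.492%). Both counts include genes that reached the CPM minimum through a single state, such as HXT6, DIA1 and STR3 (higher) and DHR2, ATF2 and SIR2 (lower). The counts are therefore partly set by that minimum. With no minimum size, 1207 genes (27%) were above 0 in all 4 differences and 1391 (31.1%) were below 0 in all 4. The spread of log2 differences over the measured genes was 0.549 to 0.674 (SD) between any libraries of different states in an assay, and 297 to 448 genes were apart by at least 1 in each such pair. Between the deletion and the wild type inside a state the same spread was 0.247 to 0.309, with 9 to 29 genes apart by at least 1. No measured gene was apart by at least 1 between the genotypes in 1 direction in all 4 comparisons inside the states, and TIS11 itself was below the CPM minimum. The 2 old replicates of a group were as close as libraries of the same young state, with spreads of 0.210 to 0.266. Across genes, the 4 state differences correlated with r of 0.773 to 0.878, both assays drawing on the same lysates. In bulk libraries such as these, fewer cells of a type and less RNA per cell cannot be told apart. Leaving out either young wild-type mRNA library, which leaves 3 differences to satisfy, moved the number of lower genes to 42.

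**Figure D1:**
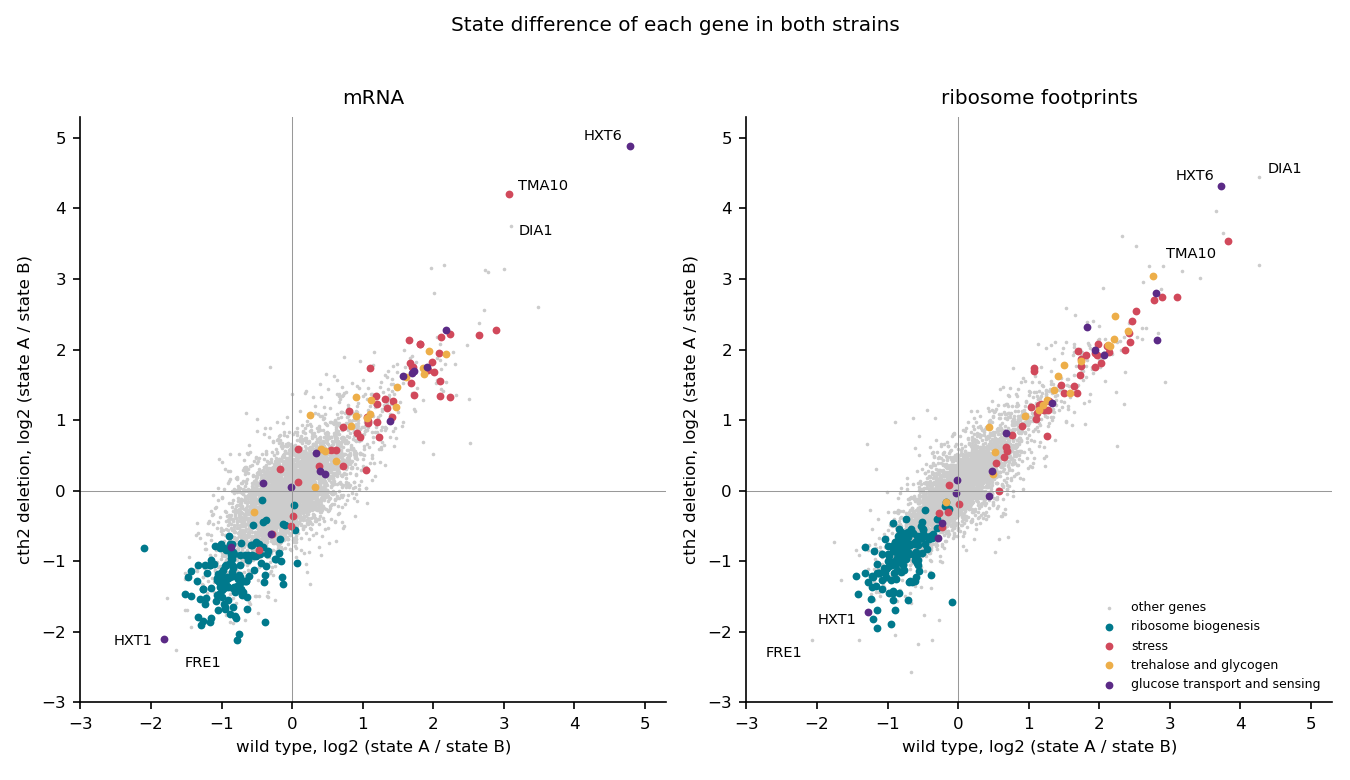
Each point is a measured gene, with its log2 difference between state A and state B in the cth2 deletion (y axis) and in the wild type (x axis), for mRNA (left) and footprints (right); colours mark the gene lists. The stress, trehalose and glycogen genes lie towards the upper right and the ribosome biogenesis genes towards the lower left in both assays, with HXT6 at 4.43 and FRE1 at -2.03 on the mean of all 4 differences.

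The hexose transporters and glucose sensors did not all differ in the same direction. Of 28 listed genes, 15 were measured, 6 were past the fold as higher in state A, and HXT1 was past it as lower. Among all measured genes, 2.75% were higher and 0.492% were lower. The 3 genes HXT5, HXT6 and MTH1 reached the CPM minimum through state A only. Their place among the 6 is therefore partly set by that minimum. HXT6 had the highest mean state difference of all measured genes. Its mRNA stood at 98.2 and 100.5 CPM in state A, against 2.79 and 3.10 CPM in state B. The gene encodes a high-affinity glucose carrier, and its level in state B rested on 9 and 14 mRNA counts. HXT6 footprints were at 24.3 and 21.5 CPM in state A, against 0.708 and 1.11 CPM in state B, and the mean of the 4 differences was 4.43 ± 0.53 (SD over the 4 differences). The deletion footprint value in state B came from 2 counts, and the ratio in that pair was 34.4, with an exact 95% interval of 9.32 to 287 that covers counting error only. HXT7, the adjacent gene, encodes a nearly identical carrier whose coding sequence differs from that of HXT6 at 3 of 1713 bases, so the split of reads between the pair is uncertain. HXT7 mRNA was at 305 and 358 CPM in state A, against 62.4 and 78.6 CPM in state B. Summed over the pair, mRNA was at 403 and 458 CPM in state A, against 65.2 and 81.7 CPM in state B, and footprints were at 177 and 163 CPM, against 40.7 and 34.2 CPM. The sum separated the states without overlap in both assays, which is largely set by the use of these values in choosing the states.

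HXT4, a carrier repressed by high glucose, was highest in the deletion library of state A in both assays. Its mRNA was at 835 and 481 CPM in state A, against 261 and 148 CPM in state B, and its footprints were at 822 and 439 CPM in state A, against 164 and 123 CPM in state B. The deletion library was above the wild-type library of the same state each time, and every state A value was above every state B value. That separation is largely set by the use of these values in choosing the states. The mean state difference of HXT4 was 1.88 ± 0.30. HXT5, a carrier made by slowly growing cells, had 37.9 and 32.5 CPM in state A, against 4.96 and 4.17 CPM in state B in footprints and a mean difference of 2.20 ± 0.70. In contrast to these, HXT1, the low-affinity carrier induced by abundant glucose, was lower in state A. HXT1 mRNA was at 46.1 and 47.7 CPM in state A, against 199 and 169.8 CPM in state B, and its footprints were at 79.7 and 77.9 CPM in state A, against 264 and 190.1 CPM in state B. The groups did not overlap, which is again largely set by the choice of the states, and the mean difference was -1.73 ± 0.34.

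The remaining carriers were less far apart. HXT2 had a mean difference of 0.55 ± 0.25 and HXT3, the most abundant family member per kilobase in state B mRNA, -0.24 ± 0.28. HXT3 mRNA was at 443 and 341 CPM in state A, against 677 and 419 CPM in state B, and the ranges overlapped. Expressed per kilobase of coding length and as a share of the 16 HXT genes, HXT4 made up 41.3% and 30.0% of family mRNA in state A, against 18.3% and 14.6% in state B. HXT3 made up 22.2% and 21.6% in state A, against 48.0% and 41.8% in state B. The family member with the largest share of mRNA thus differed between the states in both genotypes. In footprints HXT2 held 36.0% and 38.1% in state A, against 33.3% and 35.6% in state B, similar shares in all 4 libraries.

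**Figure D2:**
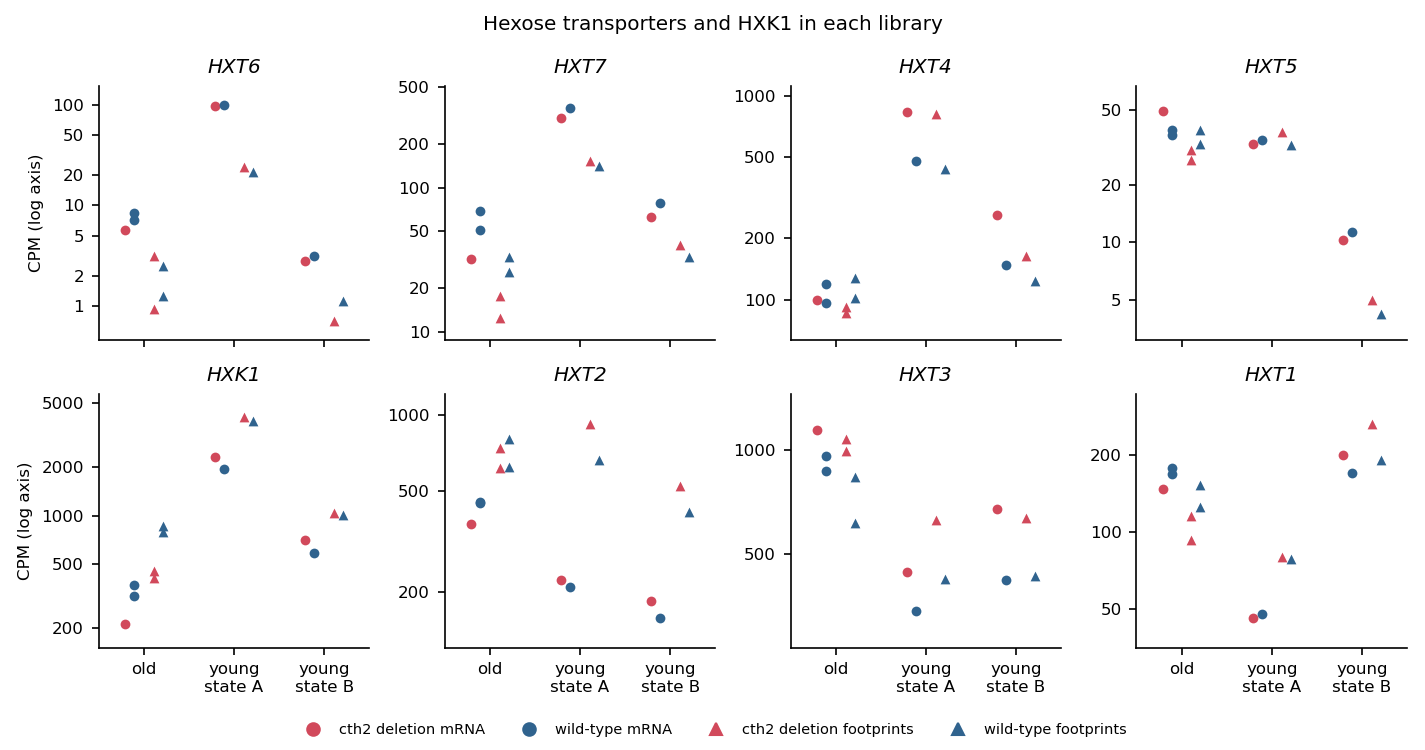
CPM on log axes of 7 hexose transporters and HXK1 in each old, state A and state B library, with circles for mRNA, triangles for footprints, red for the cth2 deletion and blue for the wild type. HXT6, HXT7, HXT4 and HXK1 were highest in state A, HXT1 was lowest there, and HXT3 was highest in the old libraries for mRNA; HXT6 mRNA was at 98.2 and 100.5 CPM in state A and 2.79 and 3.10 CPM in state B.

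Among the sensors and kinases, MTH1, which encodes a corepressor that is degraded when glucose is sensed, was past the fold. Its mRNA was at 70.1 and 33.9 CPM in state A, against 20.5 and 8.64 CPM in state B, with the deletion above the wild type in each state, and the mean difference was 2.15 ± 0.47. STD1, its paralogue, was on the other side, with a mean of -0.59 ± 0.30. HXK1, a hexokinase repressed by glucose, stood at 4093 and 3875 CPM in state A, against 1032 and 1012 CPM in state B in footprints, with a mean of 1.84 ± 0.15. Glucokinase GLK1 averaged 1.24 ± 0.18 and missed the fold by its deletion mRNA difference of 0.98. HXK2, the hexokinase that predominates on glucose, had a mean of 0.04 ± 0.08, and its mRNA was at 1521 and 1289 CPM in state A, against 1474 and 1305 CPM in state B. The repressor genes MIG1, MIG2 and RGT1 had means of 0.41, -0.32 and 0.26. The 13 listed genes that were not measured, among them the sensors SNF3 and RGT2, were below the CPM minimum. Over the 15 measured genes the median state difference was 0.55, beside -0.02 over all 4471, with a range from -1.73 to 4.43.

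The stress list held the largest number of genes past the fold. Of its 50 genes, 48 were measured, 27 were higher in state A and 0 were lower. The median state difference was 1.40. In all 4 differences 42 were above 0 and 2 below 0. The rule that chose the states used these values, so the shares of all measured genes given above are printed for scale only. TMA10, whose product associates with ribosomes, led the list. TMA10 mRNA was at 186 and 165 CPM in state A, against 9.62 and 19.0 CPM in state B, and its footprints were at 499 and 347 CPM in state A, against 42.5 and 23.9 CPM in state B, giving a mean of 3.66 ± 0.47. HSP26, a small heat-shock protein, was at 2256 and 2805 CPM in state A, against 466 and 377 CPM in state B in mRNA and had a mean of 2.66 ± 0.27. DDR2, a gene induced by many stresses, had 127 and 172 CPM in state A, against 27.0 and 27.0 CPM in state B in mRNA, with a mean of 2.43 ± 0.18. FMP45, a membrane protein of the SUR7 family, averaged 2.37 ± 0.68. These 4 genes did not overlap between the states in either assay, which is largely set by their choice as the furthest apart of the list. FMP45, GPX1 and GND2, all among the 27 higher genes, reached the CPM minimum through state A only. Their place among the 27 is therefore partly set by that minimum.

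Other members past the fold were the catalase gene CTT1, at 2.02, the membrane-associated heat-shock gene HSP12, at 1.85, and the inducible Hsp70 gene SSA4, at 1.98. Chaperones that growing cells also need were less far apart. HSP82, an Hsp90 gene, averaged 0.59, its constitutive partner HSC82 -0.37, the Hsp110 gene SSE1 -0.19 and the Hsp40 gene YDJ1 -0.52, and none of the 4 was past the fold. Summed over the list, mRNA was at 47313 and 50576 CPM in state A, against 32721 and 28852 CPM in state B. Summed footprints were at 84421 and 80644 CPM in state A, against 46865 and 44160.1 CPM in state B. State A was the higher in every library for both sums, and these values entered the choice of the states.

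Storage carbohydrate genes showed the same order of states. Of 20 trehalose and glycogen genes, 19 were measured, 10 were past the fold as higher, 0 as lower, and the median was 1.30. The share of all measured genes past the fold as higher was 2.75%. GLG1, among the 10, reached the CPM minimum through state A only. GLC3, the glycogen branching enzyme, had mRNA at 680.1 and 563 CPM in state A, against 172 and 146 CPM in state B, and a mean difference of 2.15 ± 0.24. PGM2, the main phosphoglucomutase, which supplies glucose 1-phosphate, had mRNA at 2139.9 and 2059 CPM in state A, against 641 and 566 CPM in state B, and a mean of 1.99 ± 0.23. GSY1, a glycogen synthase, averaged 1.93 ± 0.21, and GPH1, the glycogen phosphorylase, averaged 1.92 ± 0.19, so that genes for both synthesis and breakdown were higher in state A. TPS1, the trehalose 6-phosphate synthase, was just past the fold, at 1.15 ± 0.13. PGM1, the minor phosphoglucomutase, averaged -0.29. Summed footprints of the 20 genes were at 22116 and 21860.4 CPM in state A, against 8217 and 8029 CPM in state B.

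Among metabolic genes beyond storage, fewer were past the fold. In glycolysis and fermentation, 27 of 28 genes were measured, 3 were higher and the median was 0.18. The 3 were the minor isozyme genes GPM2, TDH1 and ADH5, at 1.65, 1.63 and 1.59. TDH1 shares 90.2% of its coding bases with TDH2. The major genes CDC19, for pyruvate kinase, and PDC1, for pyruvate decarboxylase, averaged -0.14 and -0.13. In the tricarboxylic acid cycle and respiration list, 49 of 51 were measured, 43 were above 0 in all 4 differences and the median was 0.40. Only CYC7, a cytochrome c isoform, was past the fold, at 1.76. Among all measured genes, 27% were above 0 in all 4 and 2.75% were past the fold as higher. Of 27 genes for alternative carbon sources 13 were measured, with a median of 0.64 and none past the fold; CAT2, carnitine acetyltransferase, averaged 1.45 and the putative ammonium transporter gene ATO3 -1.11. The methionine and sulfate list had 17 of 25 measured, a median of 0.87 and 2 genes past the fold, the cystathionine beta-lyase gene STR3 at 3.39 and the methionine permease gene MUP1 at 1.43. Amino acid synthesis genes had a median of -0.07 over 49 measured of 54, with none past the fold.

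Genes for making ribosomes were lower in state A. Of 146 ribosome biogenesis genes, 144 were measured, 0 were past the fold as higher and 10 as lower, and 141 were below 0 in all 4 differences. Among all measured genes, 0.492% were past the fold as lower and 31.1% were below 0 in all 4. The median of the list was -0.94, just short of the minimum size for a single difference. NSR1, the yeast nucleolin, had mRNA at 80.2 and 112 CPM in state A, against 303 and 274 CPM in state B, and footprints at 125 and 153 CPM in state A, against 442 and 354 CPM in state B. Its mean difference was -1.56 ± 0.36. DHR2, an RNA helicase of small-subunit assembly, had mRNA at 12.0 and 12.9 CPM in state A, against 44.7 and 31.7 CPM in state B, and a mean of -1.55 ± 0.40. SYO1, the import chaperone of ribosomal proteins Rpl5 and Rpl11, had mRNA at 18.0 and 23.6 CPM in state A, against 63.9 and 60.2 CPM in state B, and a mean of -1.42 ± 0.25. UTP23 of the small-subunit processome and NOP15 of large-subunit assembly averaged -1.34 ± 0.35 and -1.34 ± 0.14. State A was below state B in every library for each of these 5 genes. That is largely set by their choice among the 10 lowest genes past the fold. The gene of the list with the highest mean, the proline isomerase gene FPR3, was at -0.23. Summed over the list, mRNA was at 9839.5 and 11099 CPM in state A, against 21169.5 and 19238 CPM in state B, and footprints were at 12399 and 12291 CPM in state A, against 22257 and 20788 CPM in state B.

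The rest of the ribosome production machinery lay on the same side, with medians closer to 0. Of 29 RNA polymerase I and III genes 24 were measured, with a median of -0.74 and 0 past the fold. Of the 24, 20 were below 0 in all 4 differences, beside 31.1% of all measured genes. RPA34 and RPA190, subunits of polymerase I, averaged -1.01 and -0.99, and MAF1, the repressor of polymerase III, 0.34. Of 138 ribosomal protein genes 135 were measured, with a median of -0.50 and 0 past the fold. Of the 135, 127 were below 0 in all 4, again beside 31.1% of all measured genes. Summed ribosomal protein mRNA was at 197031 and 218926 CPM in state A, against 292164 and 265731 CPM in state B, and summed footprints were at 102614 and 113763 CPM in state A, against 153412 and 164602 CPM in state B. Neither sum overlapped between the states, which were chosen by the values of these same libraries. RPL7B, which is 96.7% identical to RPL7A in coding sequence, had the largest negative mean among the ribosomal protein genes, at -1.05. Translation factors had a median of -0.41 over 41 measured of 42, led by TIF4631, an eIF4G gene, at -0.80.

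**Figure D3:**
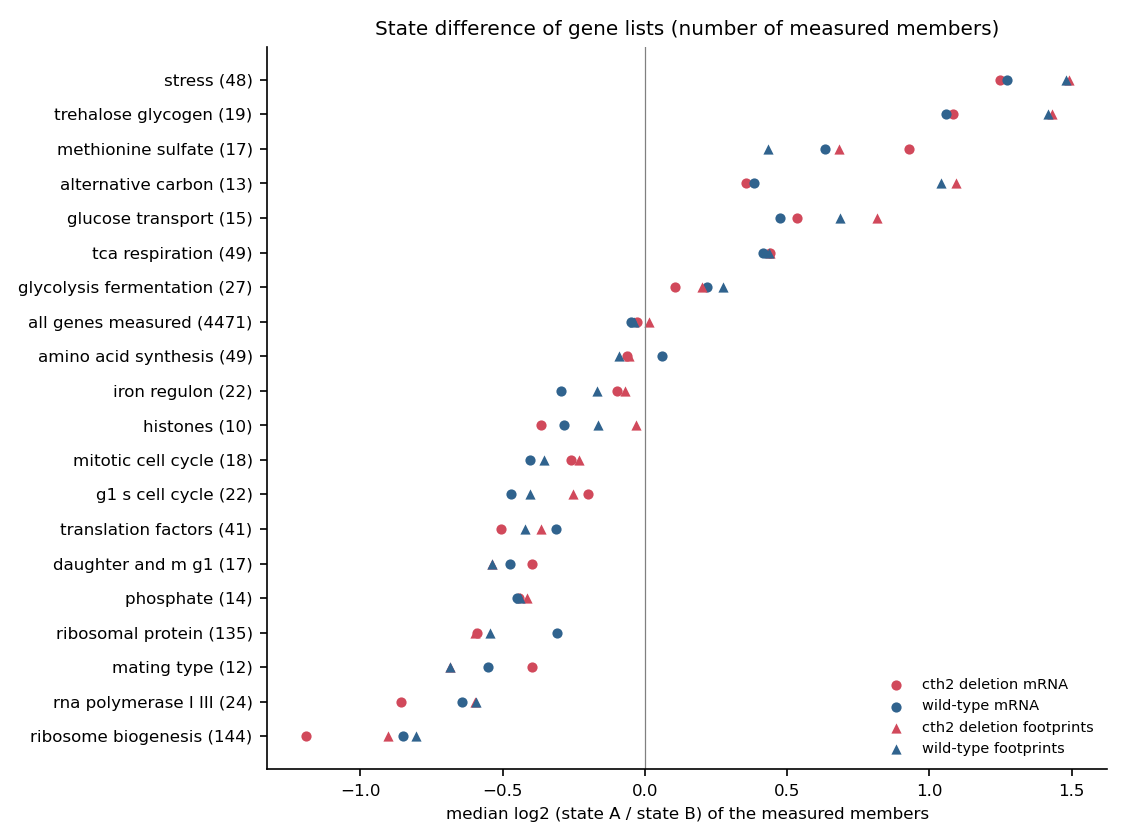
For each gene list (number of measured members in brackets), the median log2 difference between state A and state B is shown for deletion mRNA, wild-type mRNA, deletion footprints and wild-type footprints. Stress (median of the gene means 1.40) and trehalose and glycogen (1.30) lie at the top and ribosome biogenesis (-0.94) at the bottom, with all measured genes near 0.

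Promoters of the genes past the fold carried different short motifs, and the stretches printed here show them for 2 genes that were higher in state A and 3 ribosome biogenesis genes that were lower. They were read from RefSeq's R64 genome sequence and run 5′ to 3′ along the gene's strand, from 250 to 91 bases before the start codon. Capitals mark AGGGG, the stress response element bound by Msn2 and Msn4, in DDR2 and GLC3, and GATGAG, the PAC element, and AAAAATTT, the RRPE element, in the others, each on either strand. The stretches are chrXV:231846-232005, minus strand (DDR2), chrV:132870-133029, plus strand (GLC3), chrIV:340225-340384, minus strand (SYO1), chrXIV:418579-418738, minus strand (NOP15) and chrVII:807747-807906, minus strand (NSR1).
DDR2: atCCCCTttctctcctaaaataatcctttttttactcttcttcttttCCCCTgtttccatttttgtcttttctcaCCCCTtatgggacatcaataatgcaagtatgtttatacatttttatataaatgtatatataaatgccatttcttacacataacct
GLC3: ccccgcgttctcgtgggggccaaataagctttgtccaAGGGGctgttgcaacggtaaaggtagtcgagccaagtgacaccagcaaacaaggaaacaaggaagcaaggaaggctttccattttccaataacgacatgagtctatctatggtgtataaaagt
SYO1: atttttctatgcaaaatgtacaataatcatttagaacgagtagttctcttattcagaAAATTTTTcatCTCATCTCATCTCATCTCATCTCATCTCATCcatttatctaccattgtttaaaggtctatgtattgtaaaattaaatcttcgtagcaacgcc
NOP15: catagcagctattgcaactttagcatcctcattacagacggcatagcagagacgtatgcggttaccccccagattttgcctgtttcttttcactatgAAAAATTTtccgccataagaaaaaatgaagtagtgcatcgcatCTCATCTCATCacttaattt
NSR1: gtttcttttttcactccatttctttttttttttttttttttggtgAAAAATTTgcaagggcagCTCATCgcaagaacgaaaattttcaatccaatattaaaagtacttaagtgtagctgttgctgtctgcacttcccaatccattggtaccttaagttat
DDR2 held AGGGG 3 times and SYO1 held GATGAG 6 times in a row, overlapping by a base. Over windows from 250 bases before to 50 bases into the coding sequence, AGGGG was present on either strand in 74 of the 123 higher genes (60.2%), 2 of the 22 lower genes (9.09%) and 988 of 4469 measured genes (22.1%). GATGAG was present in 19 of the higher genes (15.4%), 13 of the lower genes (59.1%) and 20.1% of all measured genes. AAAAATTT was present in 7 of the higher genes (5.69%), 11 of the lower genes (50%) and 16.4% of all. Over the gene lists, AGGGG was in 68.8% of the 48 measured stress genes and GATGAG in 90.3% of the 144 measured ribosome biogenesis genes. The binding site of the repressor Rgt1, CGGANNA, was about as frequent in the higher genes (26.8%), the lower genes (27.3%) and all (26.9%). The heat shock element GAANNTTC was in 10.6%, 4.55% and 12.5%. A match to these letters is a description of the window and was not tested as a binding site. The sets of higher and lower genes include genes that reached the CPM minimum through a single state.

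Genes outside the lists of glucose, stress and ribosome genes were among the furthest apart. DIA1, a gene linked to invasive growth, had mRNA at 236 and 143 CPM in state A, against 17.1 and 16.2 CPM in state B, and a mean difference of 3.89 ± 0.61; it overlaps another annotated gene, and the strand setting of the counts is not given in the sources used here. CMK2, a calmodulin-dependent protein kinase, had mRNA at 1002 and 726 CPM in state A, against 114 and 109 CPM in state B, and a mean of 2.99 ± 0.21. Neither overlapped between the states, which is largely set by their choice among the 10 highest genes past the fold. STR3 mRNA was at 61.9 and 44.9 CPM in state A, against 6.52 and 5.09 CPM in state B. The SUR7-family gene YNL194C averaged 2.93 ± 0.38 and its chromosomal neighbour YNL195C 2.83 ± 0.38. EGO4, HAB1 and the stationary-phase gene SPG4 had means of 2.88, 2.83 and 2.72. DIA1, STR3, YNL194C, YNL195C, HAB1 and SPG4 reached the CPM minimum through state A only, so their place among the genes furthest apart is partly set by that minimum.

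On the lower side, FRE1, a reductase of iron and copper at the cell surface, was furthest from 0 among the genes past the fold. FRE1 mRNA was at 27.8 and 27.6 CPM in state A, against 135 and 87.7 CPM in state B, and its footprints were at 23.6 and 18.9 CPM in state A, against 104 and 81.5 CPM in state B, with a mean of -2.03 ± 0.26. It was the only gene of the iron regulon past the fold, out of 22 measured of 31 (0.492% of all measured genes were lower). The median of that list was -0.12. In all 4 differences 9 of its genes were below 0 (31.1% of all measured genes were) and 4 were above 0 (27% of all). CTR1, the high-affinity copper transporter, had mRNA at 24.9 and 25.4 CPM in state A, against 59.3 and 61.6 CPM in state B, and a mean of -1.50 ± 0.42. ERG3, a sterol desaturase, averaged -1.47 ± 0.25, and ATF2, an alcohol acetyltransferase, averaged -1.38 ± 0.19. SIR2, the histone deacetylase of silencing, was near the threshold at -1.28 ± 0.23, with mRNA at 7.89 and 17.6 CPM in state A, against 21.1 and 35.9 CPM in state B. In SIR2 the deletion library was below the wild-type library of the same state. AAH1, adenine deaminase, was also just inside the fold, at -1.27, as was YDC1, a ceramidase, on the higher side, at 1.14. Just outside were SDS24 and the mitochondrial peroxiredoxin gene PRX1, at 1.40 and 1.04, and the poly(A) polymerase gene TRF5 and the small-subunit assembly gene BFR2, at -1.38 and -1.35, each short of 1 in a single difference. ATF2, SIR2 and TRF5, like DHR2 of the ribosome biogenesis list, reached the CPM minimum through state B only.

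Lists of cell cycle and cell type markers had medians below 0. The 17 daughter-cell and early G1 genes were all measured, none was past the fold and the median was -0.46. Of these genes 11 were below 0 in all 4 differences (31.1% of all measured genes were). Their summed mRNA was at 1643 and 1506 CPM in state A, against 1871 and 2213 CPM in state B, and their summed footprints were at 3206 and 2493 CPM in state A, against 4245 and 3526 CPM in state B. None of these genes was at 0 in any library, and TOS6 had the largest difference, at -0.98. The 16 mating-type genes had 12 measured and a median of -0.65. BAR1, the protease that degrades alpha factor, was past the fold as lower, at -1.22 (0.492% of all measured genes were). In this list 7 were below 0 in all 4 (31.1% of all measured genes were). Summed mRNA of that list was at 1299 and 1386 CPM in state A, against 1896 and 2292 CPM in state B, and summed footprints were at 1187 and 1253 CPM in state A, against 2093 and 2003 CPM in state B. The pheromone gene MFA1 of a cells averaged -0.91, whereas the alpha-cell genes MF(ALPHA)1, MF(ALPHA)2, SAG1 and STE3 were below the CPM minimum, and the 2 alpha-factor genes had 0 footprint counts in all young libraries. G1 and S phase genes had a median of -0.36 over 22 measured, mitotic genes -0.30 over 18 and histone genes -0.21 over 10, with none past the fold; CLB6, an S-phase cyclin, averaged -1.03 and CLB2, a mitotic cyclin, -0.70. Phosphate genes had a median of -0.47 over 14 measured. The part of these cell markers in the state difference was not tested.

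Footprints followed mRNA for most genes. The mean mRNA difference and the mean footprint difference correlated across the 4471 genes with r of 0.886, the values of each lysate entering both. In 13 genes (0.291%) the footprint difference exceeded the mRNA difference by at least 1 in both genotypes, and in 2 genes (0.0447%) it fell short by at least 1. Across all genes this footprint-minus-mRNA quantity correlated between the genotypes with r of 0.170. MRK1, a homologue of glycogen synthase kinase 3, had mRNA at 65.4 and 45.8 CPM in state A, against 22.7 and 17.1 CPM in state B, but footprints at 24.5 and 20.3 CPM in state A, against 1.06 and 1.11 CPM in state B. Its footprint-minus-mRNA differences were 2.46 in the deletion and 2.26 in wild type. The deletion footprint level in state B rested on 3 counts, and the footprint ratio in that pair was 23.1, with an exact 95% interval of 7.73 to 113 for counting error only.

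CSR2, an adaptor of the ubiquitin ligase Rsp5, had footprints at 17.4 and 36.7 CPM in state A, against 1.42 and 1.39 CPM in state B, and footprint-minus-mRNA differences of 1.36 in the deletion and 3.31 in wild type. GAC1, which targets protein phosphatase 1 to glycogen synthase, had mRNA at 77.0 and 47.7 CPM in state A, against 36.3 and 40.1 CPM in state B, and footprints at 85.3 and 86.1 CPM in state A, against 9.91 and 12.2 CPM in state B. Its footprints were further apart than its mRNA in both genotypes. Neither overlapped between the states, which were chosen by the values of these same libraries. The other genes on this side were MET2, ACS1, BAG7, NCE103, ENA1, SKM1, FUN19, CAT8, HXT5 and FMP45, with averages of the 2 genotypes between 1.09 and 2.06. Of the genes on this side, GAC1, ACS1 and FUN19 reached the CPM minimum in both states, and the others did so through state A only. ACS1, the acetyl-CoA synthetase repressed by glucose, had mRNA at 21.2 and 19.8 CPM in state A, against 23.9 and 15.3 CPM in state B, but footprints at 129 and 86.1 CPM in state A, against 32.6 and 25.0 CPM in state B. MET6, the methionine synthase, went the other way, with mRNA at 267 and 194 CPM in state A, against 58.7 and 46.1 CPM in state B, but footprints at 1071 and 812 CPM in state A, against 541 and 601 CPM in state B. TAH1, a cofactor of Hsp90, had footprints at 8.05 and 10.4 CPM in state A, against 20.2 and 19.8 CPM in state B, and mRNA at 41.7 and 48.4 CPM in state A, against 48.7 and 40.7 CPM in state B; it reached the CPM minimum through state B only.

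**Figure D4:**
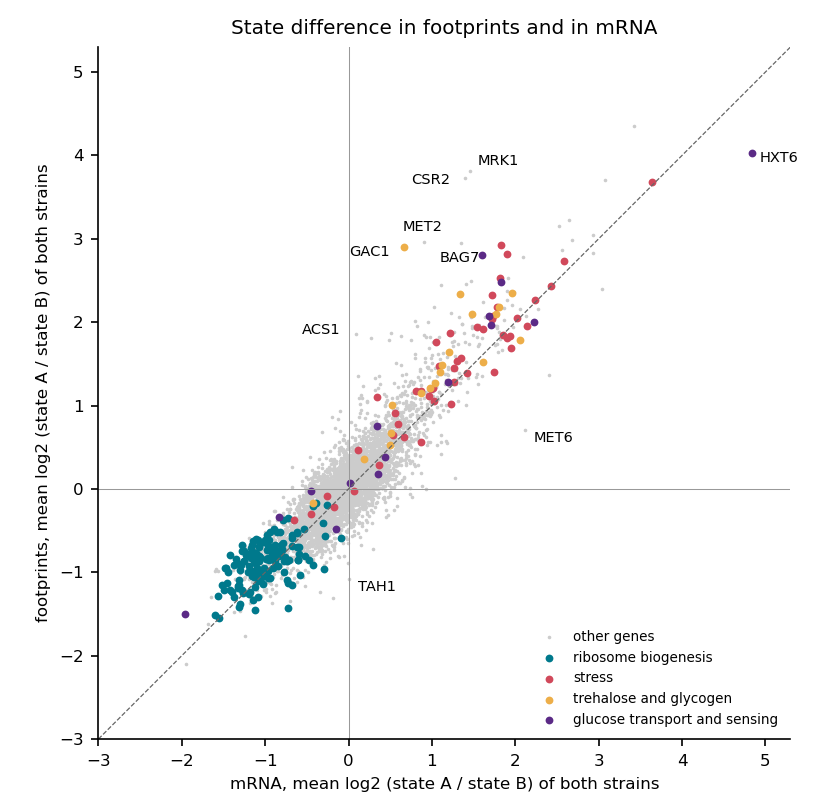
Each measured gene's mean log2 difference between state A and state B over both genotypes is plotted for mRNA (x axis) and footprints (y axis), with the dashed line at equal values. Points follow the line (r of 0.886), while MRK1, CSR2, GAC1, MET2 and ACS1 lie above it and MET6 and TAH1 below it.

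The old libraries had no part in choosing the states. Correlations across the 4471 genes between the difference of the 2 old replicates of a group (replicate 1 minus 2) and the mean state difference were 0.252 for deletion footprints, -0.191 for wild-type footprints and -0.128 for wild-type mRNA. The old cells were set against each young state in turn, the same old libraries entering both comparisons. For deletion footprints the median of the stress list was -1.50 in old minus state A and -0.27 in old minus state B. For wild-type footprints these medians were -1.21 and 0.22, and for wild-type mRNA -1.32 and -0.10. The ribosome biogenesis list had medians of 1.26 and 0.35 for deletion footprints, 0.99 and 0.21 for wild-type footprints and 1.14 and 0.28 for wild-type mRNA. Other lists lay nearer state A. In the same order, ribosomal protein genes had medians of 0.08 and -0.51, -0.10 and -0.62, and -0.47 and -0.78. Translation factors had medians of -0.20 and -0.53, -0.13 and -0.47, and 0.17 and -0.27. The iron regulon had medians between 0.94 and 1.22 in the same groups, against either state.

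Single genes placed the old cells on different sides of the states. NSR1 footprints in old cells were at 436 to 653 CPM, within or above the range of state B. PGM2 footprints in old cells were at 148 to 512 CPM, below both states, and EGO4 footprints at 13.0 to 35.2 CPM were also below both. HXT5 footprints in old cells, at 27.2 to 39.2 CPM, were close to state A. HXT3 mRNA in old cells, at 872 to 1144 CPM, was above every young library.

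**Figure D5:**
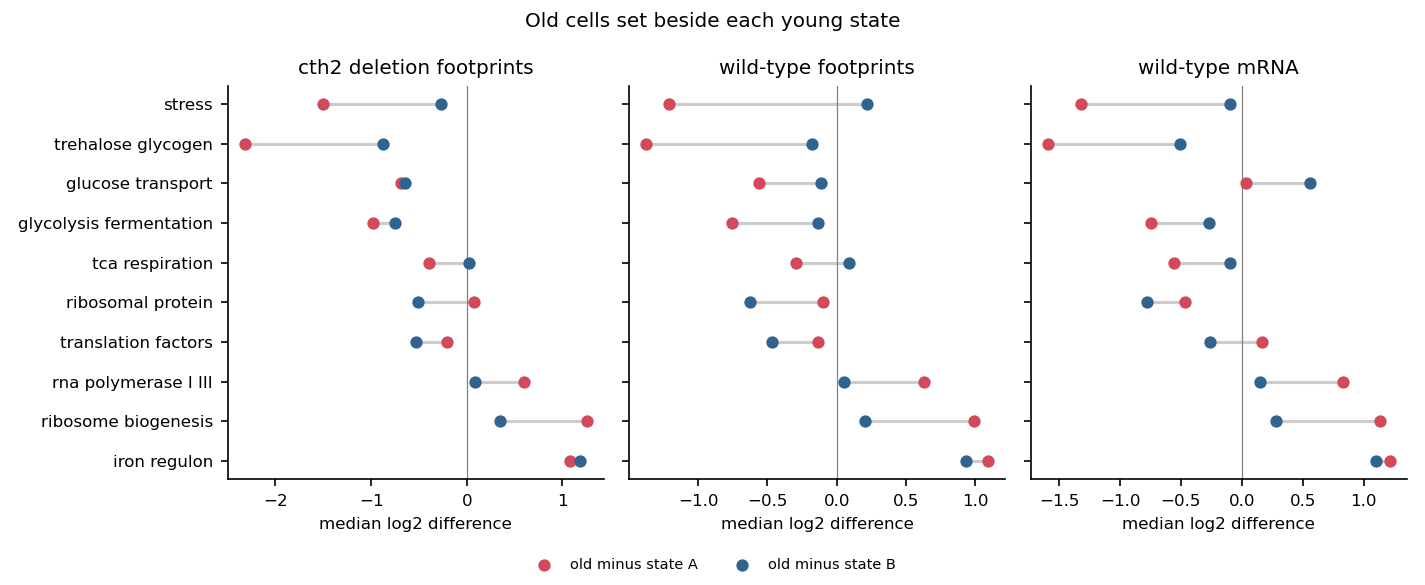
For each gene list, the median log2 difference of old cells from state A and from state B is shown for deletion footprints, wild-type footprints and wild-type mRNA. For the stress list the medians were -1.50, -1.21 and -1.32 from state A and -0.27, 0.22 and -0.10 from state B, whereas the iron regulon was near 1 from either state. Ribosomal protein medians were 0.08, -0.10 and -0.47 from state A and -0.51, -0.62 and -0.78 from state B.

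Averaged over both states, as the labels group the samples, 869 of 5308 genes were higher in old footprints (16.4%) and 787 were lower (14.8%), at an adjusted p threshold of 0.05 in edgeR's quasi-likelihood test with Benjamini-Hochberg adjustment over all genes. In wild-type mRNA 52 of 5991 genes were higher in old cells (0.868%) and 5 were lower (0.0835%). The wild-type mRNA test called 0 stress and 0 ribosome biogenesis genes in either direction. The footprint test averaged old minus young over both genotypes, so the counts of the mRNA and footprint tests are not on a like footing. The median log2 difference of the stress list was -0.77 in the mRNA test and -0.90 in the footprint test. For the ribosome biogenesis list it was 0.63 and 0.65. In the footprint test, 4 stress genes were higher and 19 lower, and 39 ribosome biogenesis genes were higher and 1 lower. These list counts leaned on single libraries. Without replicate 1 or 2 of the old deletion footprints, 3 and 0 ribosome biogenesis genes were called higher and 9 and 8 stress genes lower. Without replicate 1 or 2 of the old wild-type footprints, the counts were 1 and 2 and again 9 and 8. Leaving out the young state B deletion or wild-type footprint library moved the higher ribosome biogenesis genes to 114 and 85, and leaving out the young state A wild-type one moved them to 18. The 4 higher stress genes were 2 without any of the 4 old libraries, and 6 and 7 without the young state A deletion and wild-type library. The total of 1656 called genes was 584 and 515 without the old deletion libraries and 610 and 550 without the old wild-type libraries. In mRNA the total of 57 was 1 without either old wild-type library, 15 and 10 without young wild-type replicate 1 and 2, and 97 without either young deletion library. HXT3 was higher in old footprints by 0.75 on the log2 scale (SE 0.125, adjusted p = 0.00769 in edgeR's quasi-likelihood test). All 4 old libraries were above both young libraries of their genotype, and the log2 difference ran from 0.63 to 0.84 with single libraries left out. HXT3 was among 8 genes called in this test and followed over the settings, with EGO4, GSY1, PGM2, HXT7, HXT4, HXK1 and DHR2. With the replicate number as a block, 4 of the 8 lost their call, and HXT3 was not among them.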

How the data were processed

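The deposited files hold raw counts per gene, 1 file per library, per the file headers and their whole-number values. The submitters' processing notes name cutadapt 3.4, Bowtie 1.1.2, STAR 2.7.9a and genome build R64; the role of each tool, the counting program and its strand setting are not given in the sources used here. Per the labels' protocols, mRNA captured on beads was hydrolysed in alkali, footprints came from 80S fractions after RNase I, and both came from aliquots of a lysate made in cycloheximide. Of 7127 gene identifiers 6047 matched the R64 annotation, and 5955 of 6008 coding genes (99.1%) had its coding length.

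Counts were scaled by TMM (trimmed mean of M-values) in each assay and turned into log2 CPM (counts per 1000000) with a prior count of 2 (edgeR 4.0.16, R 4.3.3). State differences carry no test because the same values chose the states. Age was tested with edgeR's quasi-likelihood fit over all footprint or all mRNA libraries, and DESeq2 1.42.0 was an alternative; the age step was checked on simulated data. The states, members and gene lists were chosen with earlier results of these data known. Genes named are the 10 highest and 10 lowest past the fold, the 4 furthest of each list and all measured glucose genes, those nearest the threshold, the 3 furthest each way in footprint minus mRNA, and TIS11; other genes were named after their values were seen. Near copies were found with BLAST+ 2.17.0 (at least 90% identity over 50% of the length), and concerned 4 of the 123 higher and 1 of the 22 lower genes. CPM is relative, so a change in total mRNA per cell would not show. No 2 replicate libraries agreed within counting noise (chi-square per degree of freedom at least 3.13).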

Additional observations from a re-analysis of the deposited data

How the results depend on the processing

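State differences of 113 of the 114 named genes kept their direction under every setting tried. These settings included each of the 8 young libraries left out in turn. The exception was TAH1, at 0.01 with mRNA alone and -0.53 over both assays. Leaving out either library of a pair removes the same difference. Where all differences of a gene had the same sign, as in every gene past the fold, removing any cannot reverse their mean. For such genes the kept direction under left-out libraries or a single assay is therefore no check. With footprints alone 236 genes were higher and 52 lower in state A, with mRNA alone 69 were lower, and with a minimum difference of 0.5 the counts were 351 and 278. The glucose median was 0.75 with footprints alone and 0.28 with no filter beyond 1 count, and the stress median was 1.26 with mRNA alone. Leaving out a library gave 128 to 155 higher and 26 to 42 lower genes. Fewer differences then had to be satisfied, so these counts are no check on those from all libraries. The medians ran from 0.46 to 0.63 (glucose), 1.32 to 1.46 (stress) and -0.99 to -0.86 (ribosome biogenesis). In the age tests, called genes moved to 1026 (559 higher, 467 lower) in footprints with the replicate number as a block, and to 0 in wild-type mRNA (852 at an unadjusted p under 0.05). Same-numbered old and young libraries did not deviate together (r of -0.206, -0.198 and -0.0189), and crossing the numbers, an alternative chosen after seeing the data, gave 1011 calls in footprints. In footprints the higher ribosome biogenesis genes numbered 14 with the block and 14 with the crossed numbers, against 39 without. DESeq2's Wald test gave 260 calls in mRNA. A term for the young state gave 3278 and 2119 calls; since the states were chosen from these same libraries, that choice itself lowers the residual spread, and nothing is read from these counts. Leave-one-out fits gave 515 to 2001 calls in footprints and 1 to 97 in mRNA. The footprint calls numbered 584 and 515 without replicate 1 or 2 of the old deletion, and 610 and 550 without replicate 1 or 2 of the old wild type. The mRNA calls numbered 97 without either young deletion library, 1 without either old wild-type library, and 15 and 10 without replicate 1 or 2 of the young wild type. The cause of these shifts was not tested. Each state rests on 2 lysates, the replicate number equals the state within a genotype, and a replicate block therefore leaves every state difference as it is. Low counts limit HXT6, MRK1 and CSR2 in state B footprints, and near copies limit HXT6, HXT7, TDH1, ALD3, SSF1 and RPL7B.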

Other observations

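The following genes were grouped after their values were seen, so their counts describe these libraries and carry no test. Of 4 copper uptake genes 2 were measured, and both were past the fold as lower in state A (0.492% of all measured genes were). They were the transporter gene CTR1 at -1.50 and the reductase gene FRE1 at -2.03. Both had already been named among the 10 lowest genes past the fold, so this count follows from the choice of the group. Of the 2 below the CPM minimum, FRE7 averaged -2.27 and CTR3 -0.12, with differences of CTR3 on both sides of 0. Of 24 ergosterol genes, all measured, 2 were past the fold as lower in state A (0.492% of all measured genes were), the desaturase gene ERG3 at -1.47 and the oxidase gene ERG25 at -1.15. Across that group 19 genes were below 0 in all 4 differences (31.1% of all measured genes were), 2 were above 0 in all 4 (27% of all), and the median was -0.49.

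Targets of the calcium-activated phosphatase calcineurin lay on the other side. Of 6 genes, CMK2 at 2.99 and the vacuolar calcium pump gene PMC1 at 1.93 were past the fold as higher in state A (2.75% of all measured genes were). The calcineurin regulator gene RCN1 averaged 1.38, the glucan synthase gene GSC2 1.21 and the sodium pump gene ENA1 1.19. ENA1 has 2 near copies, so its level is uncertain. The Golgi calcium pump gene PMR1 averaged 0.07, and the median of the 6 was 1.30.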
